A study of Mus musculus with 18 samples.

Results

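The genes described here are 47 interferon-stimulated genes of the mouse, chosen by symbol, and all 47 were found among the 32015 gene symbols measured in each of the mouse tumour cell lines Hepa1-6 and B16. They hold 5 sensors of foreign nucleic acid, 4 transcription factors, 4 IFIT genes, 6 OAS genes, 9 interferon-induced GTPases, 4 genes of the ISG15 and ubiquitin system, 3 genes of the PARP9 and DTX3L group, 3 nucleotide and lipid effectors and 9 others. Polyadenylated RNA was sequenced from Hepa1-6, a liver cancer line, and from B16, a melanoma line. Each line had 3 libraries with the guide RNA sgNcor1-1 and 3 with the guide RNA sgNcor1-2, both given as Ncor1 knockout, and 3 with the control guide sgCtrl, given as wild type. The labels name no interferon or other treatment for any of the 18 libraries, and they do not say whether the edited cells were clones or pools. A library is named by its guide and its replicate number, and values listed in threes are for the numbers 1, 2 and 3 in that order.

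Type I interferons bind a receptor whose kinases JAK1 and TYK2 activate the transcription factor complex ISGF3, of which STAT2 and IRF9 are subunits. ISGF3 binds the interferon-stimulated response element in the promoters of such genes, while interferon gamma acts through a different site. The proteins sense viral RNA, cut or cap-check it, trap virions and slow translation, and their RNAs are also found at a resting level in many tumour lines without added interferon. NCOR1, the product of the targeted gene, is a nuclear corepressor that brings histone deacetylase activity to promoters.

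Promoters were searched for the core of the interferon-stimulated response element, 2 copies of GAAA with any 2 bases between them, on both strands, in 250 bases before and 50 after each annotated start. Of the 36 members with a sequence in the set of RefSeq promoters used here (GRCm38.p6), 19 held it (52.8%), against 3.99% of all 27025 genes with such a sequence and 3.44% of all 32851 promoter windows. The gamma-activated site TTCNNNGAA, which can overlap the first motif, was held by 9 of the 36 (25.0%), where 9.55% of all genes and 8.3% of all windows held it. Dhx58, Zbp1, Oas2, Mx1, Mx2, Iigp1, Gvin1, Usp18, Parp9, Parp14 and Rtp4 had no sequence in the set used, which does not mean that RefSeq lacks a start for them. The stretches below come from 7 of the 10 members that hold the core and were called in B16 in a fit described below. Other members called there lack it, and 9 of 20 members with a sequence that were not called hold it. Capitals mark the core on either strand.
Ifit1: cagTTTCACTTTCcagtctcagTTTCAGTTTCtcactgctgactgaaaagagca
Ifit3: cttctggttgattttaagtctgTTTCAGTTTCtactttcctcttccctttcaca
Ifit3b: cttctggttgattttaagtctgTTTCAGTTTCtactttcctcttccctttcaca
Gbp3: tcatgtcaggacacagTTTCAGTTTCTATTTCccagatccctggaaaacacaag
Gbp7: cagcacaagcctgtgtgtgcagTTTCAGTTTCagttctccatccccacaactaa
Isg15: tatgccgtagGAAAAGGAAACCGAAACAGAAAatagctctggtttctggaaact
Rsad2: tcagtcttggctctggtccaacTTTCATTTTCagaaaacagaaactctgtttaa
All are written 5′ to 3′ on the strand of the gene. They lie at chr19:34640782-34640835 (+, Ifit1), chr19:34583385-34583438 (+, Ifit3), chr19:34607781-34607834 (+, Ifit3b), chr3:142559983-142560036 (+, Gbp3), chr3:142530261-142530314 (+, Gbp7), chr4:156200853-156200906 (−, Isg15) and chr12:26456541-26456594 (−, Rsad2). The stretches of Ifit3 and its near copy Ifit3b are the same letter for letter, and Isg15 holds 3 overlapping copies of the core. Several members are neighbours in the genome. The 4 IFIT genes lie on chromosome 19 between 34550694 and 34650009, Oas1a, Oas1g, Oas2 and Oas3 on chromosome 5 between 120730333 and 120907521, and Rsad2 and Cmpk2 on chromosome 12 between 26442746 and 26479837.

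Depth was 17689335 to 30819689 counts per library in Hepa1-6 and 15663983 to 25263749 in B16, so that 3 counts, the limit that a count of 0 allows, come to 0.0944 to 0.171 CPM (counts scaled by TMM to one common library total) in Hepa1-6 and 0.121 to 0.242 CPM in B16, counting error only. The B16 library sgNcor1-1 1 stood apart. It lay at 96.5 on the first principal component (48.6% of the variance), where the other 8 lay between -52.1 and 29.3, and its TMM scaling factor was 0.792, where the others had 0.978 to 1.091. In Hepa1-6 the first component (53.3% of the variance) separated the libraries numbered 1, at 71.9, 70.1 and 27.4, from the other 6, all below 0. Ncor1 itself had 197, 130 and 177 CPM with sgNcor1-1 and 149, 140 and 186 CPM with sgNcor1-2 in Hepa1-6, against 266, 264 and 222 CPM in sgCtrl, a log2 difference of -0.62 (SE 0.17) that edgeR did not call (adjusted p = 0.223). In B16 it had 236 to 367 CPM in the 6 knockout libraries and 279 to 326 CPM in sgCtrl. A small edit can leave a transcript's count in place, so these counts do not check the edit. The 7 melanocyte markers summed to 4770 to 17800 CPM in B16 knockout libraries and 5550 to 14400 CPM in sgCtrl. In Hepa1-6 they summed to 0.948 to 3.49 CPM and 1.6 to 3.95 CPM. The 7 hepatocyte markers summed to 1000 to 1410 CPM in Hepa1-6 knockout libraries and 913 to 1090 CPM in sgCtrl, with 4 of the 7 at a mean of at least 1 CPM. In B16 they summed to 101 to 150 CPM and 88.6 to 113 CPM, with 1 at such a mean. The 4 fibroblast markers summed to 707 to 1590 CPM in Hepa1-6 knockout libraries and 1170 to 1410 CPM in sgCtrl. Of these 4, 2 had a mean of at least 1 CPM there, and Col1a2 was at 0 in sgCtrl. In B16 they summed to 12.1 to 39.9 CPM and 15.1 to 35.1 CPM, with 3 at such a mean. The 10 leukocyte markers summed to 0.481 to 4.35 CPM in B16 knockout libraries and 0.181 to 1.73 CPM in sgCtrl, with Ptprc, Adgre1, Itgam, Cd3e and Tyrobp at 0 in both. In Hepa1-6 the leukocyte sum was 15.6 to 107 CPM in knockout libraries and 33.7 to 96.9 CPM in sgCtrl, and its part in the results was not tested.

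In B16, 40 of the 44 members tested had a fitted log2 ratio of knockout over control above 0, with a median of 0.43, while 52.9% of all 12347 genes tested were above 0 with a median of 0.01. None passed the test over all 9 libraries. In bulk RNA, fewer cells with a transcript and less of it per cell cannot be told apart. Zbp1, Oas3 and Gvin1 had too few counts in B16 to be tested there. By edgeR 0 of 44 were called, where 0.0% of all genes were called higher and 0.0324% lower, and DESeq2 called 0 of 47 (0.0565% of all genes higher and 0.215% lower). At an unadjusted p under 0.05 edgeR had 11 members higher and 0 lower (0.972% and 1.38% of all genes), and DESeq2 had 12 higher and 0 lower (1.33% and 1.38%). The 11 became 7 without sgCtrl 1, without sgNcor1-1 2, without sgNcor1-1 3 or without sgNcor1-2 2. Of all genes, 87 of 12523, 109 of 12563, 101 of 12527 and 122 of 12536 were higher in these fits. The median became 0.29 without sgCtrl 1. Control libraries also differed among themselves: the member median of sgCtrl 1 minus sgCtrl 2 was -0.49, that of sgCtrl 1 minus sgCtrl 3 was -0.27 and that of sgCtrl 2 minus sgCtrl 3 was 0.18.

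In B16 libraries with the same number deviated together, so the number was also fitted as a block. Then 1 of 44 members was called, Epsti1 (log2 ratio 3.16, SE 0.49, adjusted p = 0.0439), where 0.113% of all genes were called higher and 0.275% lower. With the block and without sgNcor1-1 1, 17 of the 45 members then tested rose and 0 fell, where 1.25% of all 12564 genes were called higher and 1.45% lower, and the member median was 0.58. Leaving that library out without the block gave 0 of 45 called, where 0.0% of all genes were called higher and 0.00796% lower. At an unadjusted p under 0.05, 21 of 45 were then higher and 0 lower (2.55% and 2.85% of all genes). With the block and without all 3 libraries numbered 1, 13 of 45 rose and 0 fell, where 1.63% of all genes were called higher and 1.62% lower. All 13 were among the 17. That fit used only libraries that the fit with 17 calls also used, so the overlap is not separate support. The calls in B16 thus depended on the block and on the library that stood apart.

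Among the sensors, Ddx58, which encodes RIG-I, a sensor of viral RNA ends, had 105, 207 and 171 CPM with sgNcor1-1 and 210, 213 and 185 CPM with sgNcor1-2, against 123, 143 and 119 CPM in sgCtrl. All knockout libraries but sgNcor1-1 1 lay above the 3 controls. Its log2 ratio was 0.50 (SE 0.21, adjusted p = 1.0) over all libraries and 0.61 (SE 0.09, adjusted p = 0.01) with the block and without sgNcor1-1 1. Ifih1, Dhx58 and Eif2ak2, which encode MDA5, LGP2 and the kinase PKR, were not called in that last fit, with log2 ratios of 0.11, 0.47 and 0.39.

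Of the transcription factors, Irf7, which drives interferon alpha genes, was the member called. It had 42.9, 87.8 and 63.4 CPM with sgNcor1-1 and 81.2, 85.0 and 83.3 CPM with sgNcor1-2, against 34.9, 52.4 and 54.0 CPM in sgCtrl. Every knockout library exceeded the control of its own number, and sgNcor1-1 1 lay within the control range. The log2 ratio was 0.64 (SE 0.24, adjusted p = 1.0) over all libraries and 0.71 (SE 0.14, adjusted p = 0.032) with the block and without sgNcor1-1 1. Stat2 and Irf9, subunits of ISGF3, and Irf1 had 0.13, 0.38 and -0.08 there and were not called.

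The IFIT genes, whose products bind viral RNA or each other, had the largest class median in B16, 1.31 on the log2 scale over all libraries. Ifit3 had 17.0, 100 and 32.4 CPM with sgNcor1-1 and 60.9, 85.6 and 52.7 CPM with sgNcor1-2, against 13.8, 24.8 and 16.2 CPM in sgCtrl. Each knockout library was above its same-number control, and the lowest of them, sgNcor1-1 1, lay inside the control range. Ifit3 had a log2 ratio of 1.66 (SE 0.52, adjusted p = 1.0) over all libraries and 1.74 (SE 0.19, adjusted p = 0.00535) with the block and without sgNcor1-1 1. Ifit1 (1.06, SE 0.14, adjusted p = 0.00759) and Ifit3b (1.84, SE 0.22, adjusted p = 0.00535) also rose in that fit, while Ifit2 had 0.11 and was not called. Ifit3 and Ifit3b share 51.2% and 45.0% of their 50-base stretches with other genes, mostly each other, so their reads may be split between them.

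The OAS enzymes make the messenger that switches on the RNA-cutting enzyme RNase L. All 5 tested genes of the OAS class, which also holds the OAS-like genes Oasl1 and Oasl2, had values above 0 in B16 over all libraries. Oas1g had 26.0, 29.9 and 22.1 CPM with sgNcor1-1 and 23.3, 35.7 and 25.7 CPM with sgNcor1-2, against 12.4, 18.6 and 15.8 CPM in sgCtrl. The knockout and control libraries did not overlap, sgNcor1-1 1 included. The log2 ratio was 0.80 (SE 0.22, adjusted p = 1.0) over all libraries and 0.72 (SE 0.11, adjusted p = 0.0122) with the block and without sgNcor1-1 1. Oasl2, an OAS-like gene, had 4.27, 17.1 and 5.86 CPM with sgNcor1-1 and 15.8, 18.0 and 10.1 CPM with sgNcor1-2, against 3.11, 5.67 and 3.2 CPM in sgCtrl. Oasl2 (1.64, SE 0.21, adjusted p = 0.00714) and Oas1a (0.44, SE 0.09, adjusted p = 0.045) rose in that fit, while Oas2 (0.48), Oas3 (-0.56) and Oasl1 (0.77) were not called. Oas1a and Oas1g share 57.6% and 54.7% of their 50-base stretches with other genes, mostly each other.

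Of the interferon-induced GTPases, which act on virions and on vacuoles that hold parasites, 3 of 8 tested rose in B16 with the block and without sgNcor1-1 1. Iigp1, which encodes the effector IRGA6, had 0.806, 10.6 and 6.45 CPM with sgNcor1-1 and 8.46, 8.57 and 7.26 CPM with sgNcor1-2, against 1.98, 2.83 and 2.57 CPM in sgCtrl. The library sgNcor1-1 1 was the lowest of all 9, and the other 5 knockout libraries were above every control. Its log2 ratio was 1.5 (SE 0.62, adjusted p = 1.0) over all libraries and 1.72 (SE 0.21, adjusted p = 0.00535) with the block and without sgNcor1-1 1. The guanylate-binding protein genes Gbp3 (0.80, adjusted p = 0.0338) and Gbp7 (0.61, adjusted p = 0.01) were the others called. Mx1 had 4.43, 4.39 and 3.87 CPM with sgNcor1-1 and 7.33, 6.44 and 4.13 CPM with sgNcor1-2, against 2.57, 3.14 and 3.69 CPM in sgCtrl, with no overlap. It was not called (0.66, SE 0.25, adjusted p = 0.218), nor were Mx2, Gbp2, Igtp and Irgm1 (0.67, 0.64, 0.39 and 0.38).

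Of the ISG15 and ubiquitin system, Isg15, a ubiquitin-like modifier, had 28.1, 87.3 and 44.2 CPM with sgNcor1-1 and 44.1, 120 and 55.9 CPM with sgNcor1-2, against 28.2, 76.0 and 33.5 CPM in sgCtrl. The groups overlapped across numbers, and within numbers only sgNcor1-1 1 was not above its control. Isg15 rose with the block and without sgNcor1-1 1 (0.48, SE 0.09, adjusted p = 0.0239). Trim25, a ubiquitin ligase of RIG-I signalling, had 82.9, 157 and 155 CPM with sgNcor1-1 and 167, 129 and 159 CPM with sgNcor1-2, against 97.3, 118 and 122 CPM in sgCtrl. It had 0.45 and was not called (adjusted p = 0.0904), nor were Usp18 (0.30) and Herc6 (0.20). None of the 3 genes of the PARP9 and DTX3L group, an ADP-ribosyltransferase and its ubiquitin ligase partner with PARP14, was called, with values of 0.40 to 0.58. Dtx3l had 35.9, 52.9 and 36.6 CPM with sgNcor1-1 and 74.1, 54.1 and 37.0 CPM with sgNcor1-2, against 37.3, 42.0 and 35.4 CPM in sgCtrl.

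Rsad2 encodes viperin, which makes a chain-ending nucleotide, and it had 120, 438 and 440 CPM with sgNcor1-1 and 239, 345 and 497 CPM with sgNcor1-2, against 87.3, 167 and 225 CPM in sgCtrl. Every knockout library exceeded its same-number control, while number 1 was the lowest in each group. Its log2 ratio was 1.12 (SE 0.46, adjusted p = 1.0) over all libraries and 1.23 (SE 0.12, adjusted p = 0.00206) with the block and without sgNcor1-1 1. Its neighbour Cmpk2, a nucleotide kinase gene, had 6.05, 112 and 64.9 CPM with sgNcor1-1 and 47.3, 119 and 71.1 CPM with sgNcor1-2, against 21.5, 69.8 and 39.6 CPM in sgCtrl, and rose in that last fit (0.83, SE 0.09, adjusted p = 0.00436). Samhd1, which breaks down the building blocks of DNA, had -0.10 there and was not called.

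Of the other members, Sp100, a nuclear body protein gene, had 18.7, 35.0 and 31.6 CPM with sgNcor1-1 and 33.0, 34.0 and 29.7 CPM with sgNcor1-2, against 14.7, 16.9 and 18.2 CPM in sgCtrl. The groups did not overlap. Its log2 ratio was 0.86 (SE 0.23, adjusted p = 0.903) over all libraries and 0.96 (SE 0.12, adjusted p = 0.00535) with the block and without sgNcor1-1 1. Epsti1 had 8, 24 and 11 counts with sgNcor1-1 and 17, 50 and 17 counts with sgNcor1-2, against 1, 5 and 1 counts in sgCtrl, so its fold change rests on 7 control counts. Xaf1 also rose in that fit (0.58, adjusted p = 0.0239), while Bst2, Ifi35, Ifi44, Rtp4, Lgals3bp and Apol9b were not called, with values from -0.09 for Apol9b to 1.60 for Ifi44.

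**Figure D1:**
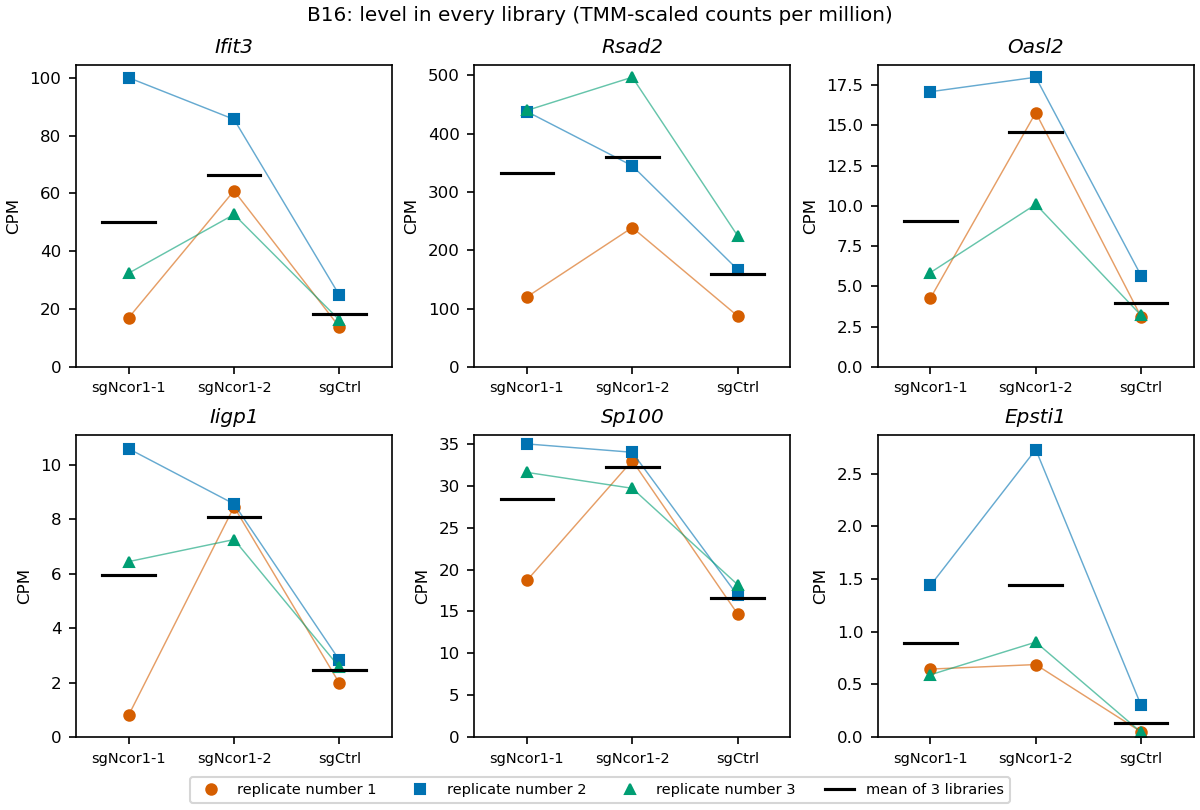
Level of Ifit3, Rsad2, Oasl2, Iigp1, Sp100 and Epsti1 in each B16 library (TMM-scaled CPM, linear axes from 0), by guide; colours and marker shapes give the replicate number, lines join libraries of the same number and black bars are means of 3 libraries. For Iigp1 the library sgNcor1-1 1 lies at 0.806 CPM, below every other library, while the other 5 knockout libraries lie at 6.45 to 10.6 CPM, above the 3 controls.

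**Figure D2:**
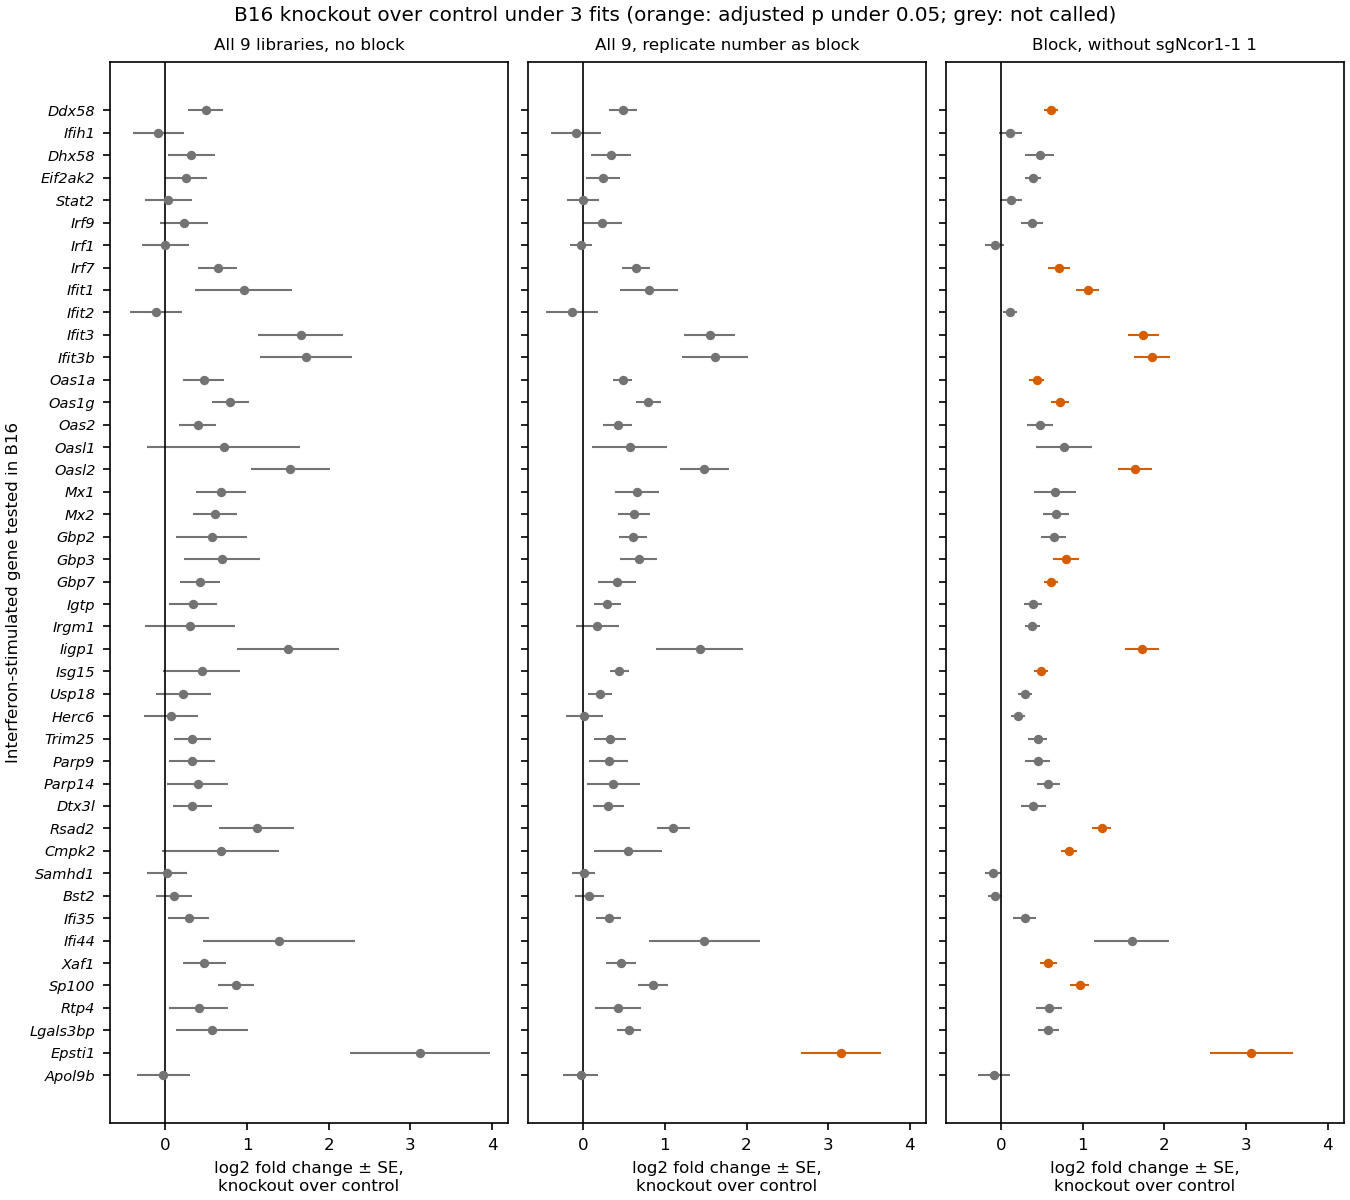
Log2 fold change of knockout over control in B16 for each member tested, with bars of 1 SE on either side, over all 9 libraries, with the replicate number as a block, and with the block and without sgNcor1-1 1; orange points have an adjusted p under 0.05. The panels hold 0, 1 and 17 called members, and the bars of most members are shortest in the last panel.

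Each guide was also set against the control alone. With the block and without sgNcor1-1 1, 6 of 45 members rose with sgNcor1-1 (Ifit3, Ifit3b, Iigp1, Rsad2, Cmpk2 and Sp100), where 0.271% of all genes were called higher. With sgNcor1-2 19 of 45 rose, where 1.11% of all genes were called higher, and all 6 were among the 19. Both guides share the control libraries, and sgNcor1-1 had only 2 libraries in this fit. Over all 9 libraries without the block edgeR called 0 members with either guide, where for each guide 0.0% of all genes were called higher and 0.0081% lower, and DESeq2 also called 0. The member medians were 0.24 with sgNcor1-1 and 0.62 with sgNcor1-2. By edgeR 5 members had an unadjusted p under 0.05 with sgNcor1-1 (0.948% of all genes higher) and 13 with sgNcor1-2 (0.98%), all higher. By DESeq2 these were 8 with sgNcor1-1 (1.08% of all genes higher) and 16 with sgNcor1-2 (1.16%). The values of sgNcor1-1 rested on single libraries. Without sgNcor1-1 2 its median was -0.02, with 22 of 45 above 0 (49.8% of all genes). At an unadjusted p under 0.05, 0 members were then higher (200 of all 12563 genes). Without sgNcor1-1 1 the median was 0.49, with 15 members higher at such a p (2.1% of all genes). Without sgCtrl 1 that count was 2 (87 of all 12523 genes), and without sgCtrl 2 the median was 0.40. For sgNcor1-2 the count of 13 became 8 without sgNcor1-2 2 (99 of all 12536 genes) or without sgCtrl 1 (86 of all 12523 genes). It became 22 without sgNcor1-1 1 (2.04% of all genes). The sgNcor1-2 median lay between 0.51 and 0.77 in all fits without 1 library.

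Within each replicate number the B16 member medians of log2 CPM in the knockout minus the sgCtrl library were -0.21, 0.44 and 0.28 for sgNcor1-1 and 0.85, 0.65 and 0.38 for sgNcor1-2, while the median over all genes was between -0.02 and 0.00. The library sgNcor1-1 1 was thus the single comparison below 0, with 18 of 44 members above 0, and the other 5 had 37 to 42. Members higher than the control of the same number in all 6 knockout libraries numbered 13 of 44, where 5.74% of all genes were, and 0 were lower in all 6, where 6.91% of all genes were. They were Irf7, Ifit3, Oas1a, Oas1g, Oas2, Oasl2, Mx1, Mx2, Gbp2, Rsad2, Sp100, Lgals3bp and Epsti1. In the 5 libraries other than sgNcor1-1 1, 35 of 44 were higher each time and 0 lower, where 12.6% and 14.0% of all genes were. By guide, 13 of 44 were higher in all 3 numbers with sgNcor1-1 and 0 lower (14.8% and 17.2% of all genes). With sgNcor1-2, 36 were higher in all 3 numbers and 1, Irf1, was lower (19.2% and 20.3% of all genes). Groups did not overlap, with the knockout higher, for Oas1g, Mx1, Sp100 and Epsti1 (4 of 44, where 0.81% of all genes did so), and without sgNcor1-1 1 for 19 of 44 (2.62% of all genes). With the knockout lower there were 0 of 44 over all libraries (1.37% of all genes) and 0 without sgNcor1-1 1 (2.79%).

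**Figure D3:**
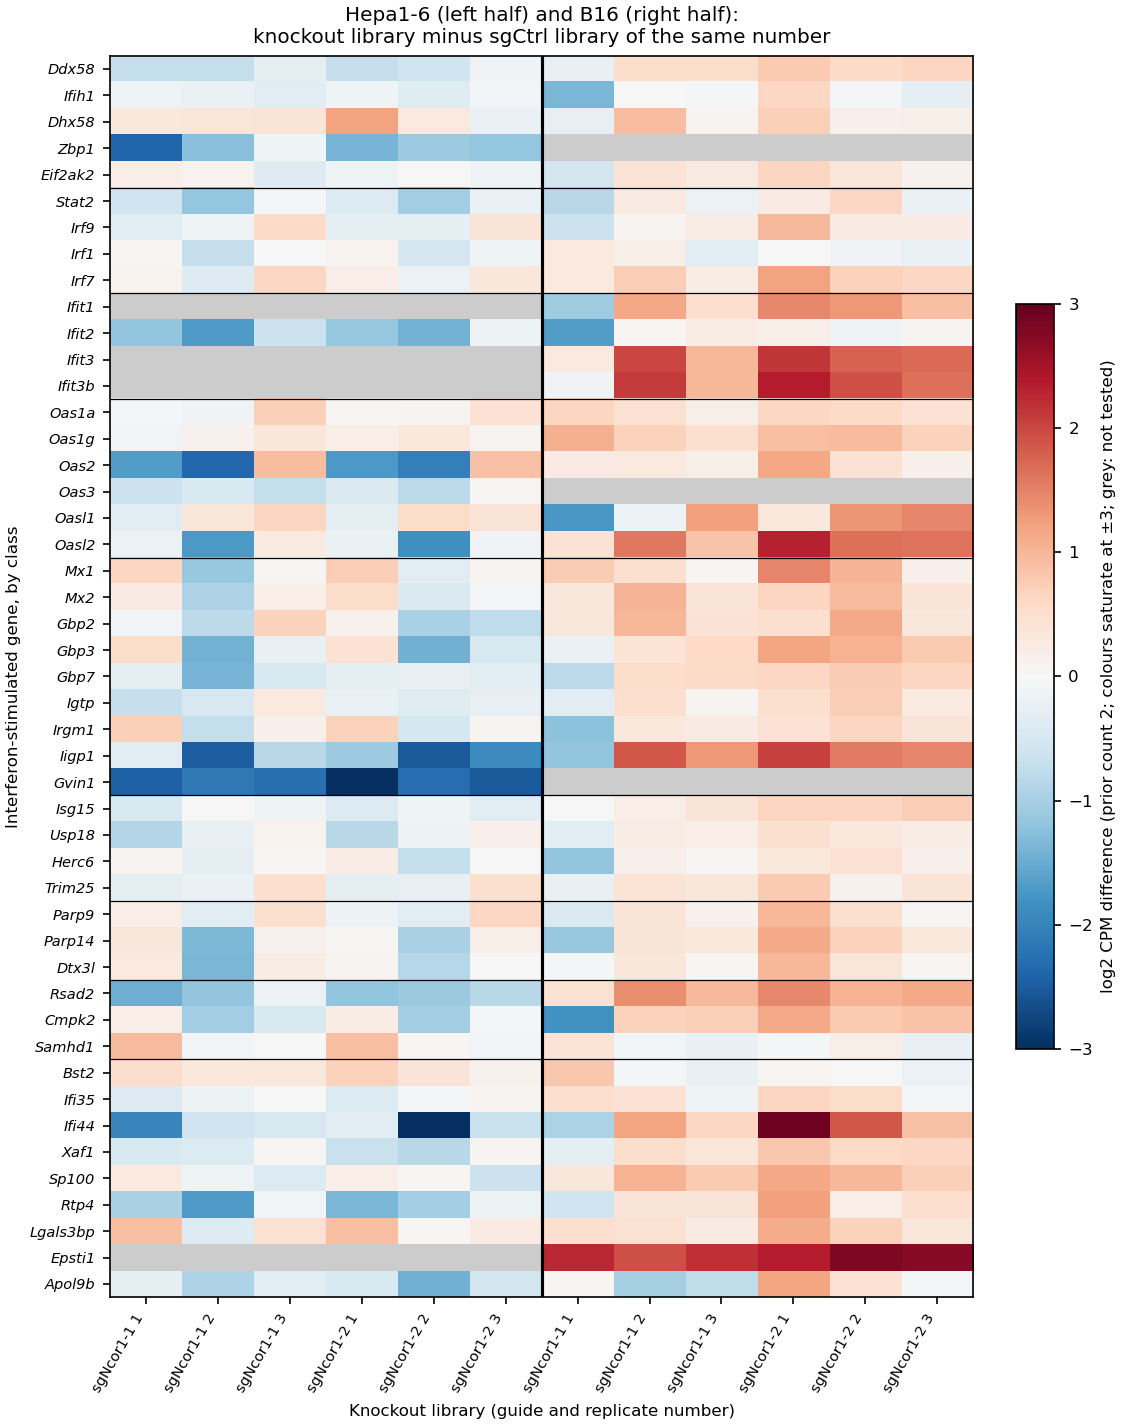
Log2 CPM (prior count 2) of each knockout library minus the sgCtrl library of the same line and number, for the 47 members by class (rows), with Hepa1-6 libraries left of the black line and B16 libraries right of it; red is higher in the knockout, blue lower, grey not tested, and colours saturate at 3 either way. The B16 column of sgNcor1-1 1 holds 18 of 44 members above 0, the other B16 columns hold 37 to 42, and in Hepa1-6 the row of Gvin1 is below 0 in all 6 columns.

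In Hepa1-6, 1 of the 43 members tested was called, Gvin1, and it was lower in the knockout. In this line 0.0562% of all 12458 genes were called higher and 0.144% lower. Ifit1, Ifit3, Ifit3b and Epsti1 had too few counts to be tested, and Epsti1 had 0 counts in all 9 libraries. Of the 43, 13 had a log2 ratio above 0 and the median was -0.21, while 52.6% of all genes were above 0 with a median of 0.02. Without a single library the median ran from -0.14 (without sgCtrl 2) to -0.37 (without sgCtrl 1), with -0.35 without sgNcor1-1 3 and -0.33 without sgNcor1-2 3. At an unadjusted p under 0.05, 4 members were lower and 0 higher (6.13% and 4.97% of all genes). Control libraries differed among themselves by member medians of -0.34 (sgCtrl 1 minus sgCtrl 2), -0.44 (sgCtrl 1 minus sgCtrl 3) and -0.04 (sgCtrl 2 minus sgCtrl 3).

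Gvin1, on chromosome 7 from 106156556 to 106215326, encodes a very large interferon-inducible GTPase. It had 118, 71 and 88 counts (3.98, 4.05 and 3.42 CPM) with sgNcor1-1 and 55, 89 and 57 counts (1.73, 3.67 and 2.84 CPM) with sgNcor1-2, against 433, 365 and 337 counts (22.2, 18.3 and 16.8 CPM) in sgCtrl. The highest knockout library lay far below the lowest control. Gvin1 fell by 2.56 on the log2 scale (SE 0.25, adjusted p = 0.00373). It was called in all 9 fits that left out 1 library, with adjusted p between 0.00252 and 0.0352, and by DESeq2 (1.26% of all genes lower). With sgNcor1-2 alone it was called (-2.80, adjusted p = 0.0174), where 0.0562% of all genes were lower, and with sgNcor1-1 alone it was not (-2.32, adjusted p = 0.0518), where 0.0241% were. The call with sgNcor1-2 alone was lost without sgNcor1-2 2, without sgNcor1-2 3 or without any of the 3 controls. Of its transcript, 99.2% of the 50-base stretches also occur in other genes, 98.3% in Gm4070, so reads of these copies cannot be told apart and the value may belong to any of them. The row named Gvin2, named here after its values were seen, had 13, 21 and 66 counts with sgNcor1-1 and 54, 119 and 79 counts with sgNcor1-2, against 375, 295 and 292 counts in sgCtrl (log2 difference -2.87, SE 0.47, adjusted p = 0.0618).

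Of the members not called, Ddx58 had 43.1, 47.2 and 55.4 CPM with sgNcor1-1 and 44.1, 51.4 and 62.5 CPM with sgNcor1-2, against 70.7, 77.5 and 67.6 CPM in sgCtrl (-0.51, SE 0.16, adjusted p = 0.282). Gvin1 and Ddx58 were the 2 of 43 members whose knockout libraries all lay below every control, where 5.23% of all genes did so, and 0 lay above every control, where 3.88% did. Ifit2 had 6.34, 2.97 and 3.23 CPM with sgNcor1-1 and 6.57, 3.63 and 4.54 CPM with sgNcor1-2, against 14.5, 9.86 and 5.07 CPM in sgCtrl (-1.11, SE 0.38, adjusted p = 0.329). Its groups overlapped through sgCtrl 3, but each knockout library was below its same-number control. With the replicate number as a block Ifit2 was called (-1.08, SE 0.23, adjusted p = 0.039), where 2.74% of all genes were called lower, though the check of pairing by number was not met in Hepa1-6. Iigp1 had 0.809, 0.171 and 1.05 CPM with sgNcor1-1 and 0.44, 0.165 and 0.449 CPM with sgNcor1-2, against 1.03, 1.35 and 1.94 CPM in sgCtrl (-1.54, SE 0.54, adjusted p = 0.338). These levels came to under 2 CPM in all libraries.

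Of the transcription factors, Stat2 had 9.0, 30.8 and 51.9 CPM with sgNcor1-1 and 10.2, 33.5 and 46.2 CPM with sgNcor1-2, against 13.6, 68.8 and 53.2 CPM in sgCtrl. All 3 libraries numbered 1 lay below the other 6, and the log2 difference of -0.58 had an SE of 0.63. Irf7 ran likewise by number, with 5.23, 13.8 and 30.0 CPM with sgNcor1-1 and 5.54, 16.1 and 24.8 CPM with sgNcor1-2, against 4.82, 18.0 and 19.5 CPM in sgCtrl (0.17, SE 0.64). Oasl2 had 2.36, 2.11 and 5.87 CPM with sgNcor1-1 and 2.3, 1.94 and 4.54 CPM with sgNcor1-2, against 2.67, 7.21 and 4.87 CPM in sgCtrl (-0.63, SE 0.46, adjusted p = 0.642). The ISG15 protease gene Usp18 had 43.6, 87.5 and 110 CPM with sgNcor1-1 and 45.5, 91.4 and 114 CPM with sgNcor1-2, against 80.7, 102 and 102 CPM in sgCtrl (-0.21, SE 0.33). The libraries numbered 1 were the lowest for both guides and for sgCtrl. Parp14, an ADP-ribosyltransferase gene, had 18.2, 11.3 and 22.8 CPM with sgNcor1-1 and 14.8, 14.5 and 23.4 CPM with sgNcor1-2, against 14.4, 28.7 and 20.7 CPM in sgCtrl (-0.28, SE 0.30). Samhd1 (0.28, SE 0.19) and Lgals3bp, a secreted glycoprotein gene (0.42, SE 0.27), had positive values with overlapping groups. For Samhd1 the value was -0.02 without the libraries numbered 1.

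Within numbers, the Hepa1-6 member medians were -0.17, -0.61 and 0.03 for sgNcor1-1 and -0.20, -0.50 and -0.08 for sgNcor1-2, each against the sgCtrl library of that number. The same-number libraries of both guides share that control. Lower than it in all 6 knockout libraries were 13 of 43 members (12.9% of all genes), namely Ddx58, Ifih1, Zbp1, Stat2, Ifit2, Gbp7, Iigp1, Gvin1, Isg15, Rsad2, Ifi44, Rtp4 and Apol9b. Bst2, which encodes the virion tether tetherin, was the 1 member higher in all 6 (11.2% of all genes), with 59.6, 106 and 128 CPM with sgNcor1-1 and 66.6, 112 and 112 CPM with sgNcor1-2, against 41.1, 85.5 and 103 CPM in sgCtrl. It was not called (0.35, SE 0.34, adjusted p = 0.741).

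**Figure D4:**
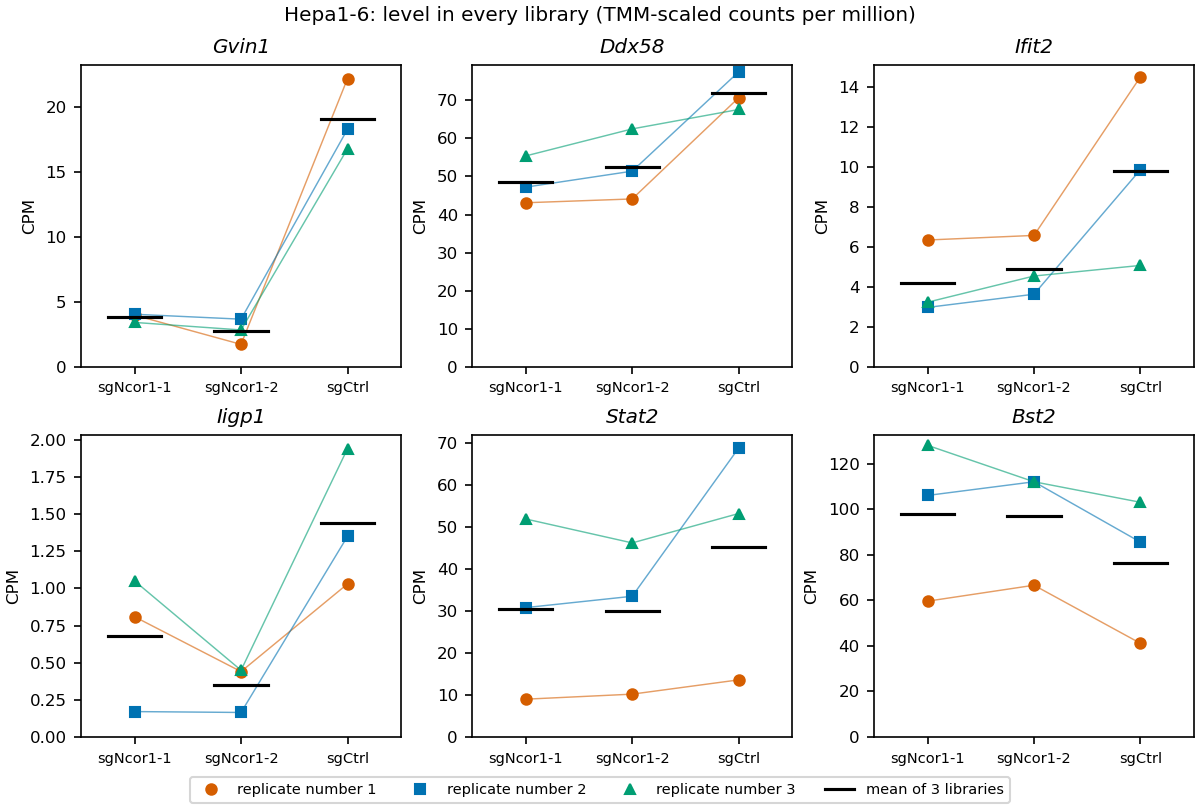
Level of Gvin1, Ddx58, Ifit2, Iigp1, Stat2 and Bst2 in each Hepa1-6 library (TMM-scaled CPM, linear axes from 0), by guide; colours and marker shapes give the replicate number, lines join libraries of the same number and black bars are means of 3 libraries. Gvin1 lies at 1.73 to 4.05 CPM in the 6 knockout libraries and at 16.8 to 22.2 CPM in the 3 controls, while Stat2 lies at 9.0 to 13.6 CPM in the libraries numbered 1 and at 30.8 to 68.8 CPM in the other 6.

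The knockout effect of Hepa1-6 was set against that of B16 in a joint fit of all 18 libraries. No member was called (0 of 47), where 0.0712% of all 14044 genes were called higher and 0.107% lower, and 6 members had an unadjusted p under 0.05, all lower in Hepa1-6 (3.83% of all genes). DESeq2 called 1, Iigp1, where it called 0.459% of all genes lower. Without the B16 library sgNcor1-1 1, edgeR called 2, Ddx58 and Iigp1 (0.147% of all genes lower). Gvin1 had 2 counts in all 9 B16 libraries and Epsti1 none in Hepa1-6, so their difference could not be estimated. Over the other 45 members the median difference was -0.615 on the log2 scale, with 4 above 0. Of all genes 50.5% were above 0, with a median of 0.01. For Rsad2 the signs were opposite. In Hepa1-6 it had 0.169, 1.14 and 2.02 CPM with sgNcor1-1 and 0.22, 1.2 and 1.25 CPM with sgNcor1-2, against 0.615, 2.7 and 2.29 CPM in sgCtrl. All 6 Hepa1-6 knockout libraries were below and all 6 B16 knockout libraries above their same-number controls, and the difference of -2.07 (SE 0.87) was not called (adjusted p = 0.665).

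Without knockout the lines differed for most members. Between sgCtrl libraries 35 of 47 were called, 6 higher and 29 lower in Hepa1-6 than in B16, where 29.6% and 29.8% of all genes were called higher and lower. The median over the 45 members with counts in the controls of both lines was -1.70 on the log2 scale, and that over all genes was 0.00. CPM values were scaled within each line, and the line and any difference in how the lines were handled cannot be told apart. Among the members lower in Hepa1-6, Ifit3 had 3, 0 and 3 counts in Hepa1-6 sgCtrl against 279, 412 and 360 counts in B16 sgCtrl (-7.38, SE 0.85, adjusted p = 1.46e-06). These Hepa1-6 counts lie at or under the counting limit of 3, so the size of the Ifit3 difference is uncertain. Rsad2 also was lower (-6.38, SE 0.83, adjusted p = 6.08e-06), with the Hepa1-6 levels given above against 87.3, 167 and 225 CPM in B16. Dhx58, which encodes the RIG-I-like receptor LGP2, had 0.769, 0.951 and 1.04 CPM in Hepa1-6 against 52.1, 52.8 and 81.9 CPM in B16 (-6.04, SE 0.41). The 4 IFIT genes were all called lower, though Ifit1, Ifit3 and Ifit3b had too few counts in Hepa1-6 to be tested within that line.

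Members higher in Hepa1-6 were Gvin1, Oasl1, Oas3, Zbp1, Mx1 and Trim25. Gvin1 averaged 19.1 ± 2.81 CPM (SD, n = 3) in Hepa1-6 controls against 0 counts in the B16 controls, at least 105-fold higher with B16 taken at 3 counts per library. Oasl1, an OAS-like gene, had 65.4, 54.8 and 59.6 CPM in Hepa1-6 against 0.79, 3.86 and 0.99 CPM in B16 (5.06, SE 0.84, adjusted p = 7.37e-05). Oas3 had 1.64, 6.76 and 6.86 CPM in Hepa1-6 against 0.0988, 0.301 and 0.585 CPM in B16 (3.94, SE 1.0, adjusted p = 0.00307). Epsti1 was called lower with 0 counts in Hepa1-6 controls and 7 in B16 controls, both at the counting limit, so no fold is given. Per kilobase of exon, Bst2 ranked highest of the 47 in the controls of both lines, at 84.7 CPM per kb in Hepa1-6 and 335 CPM per kb in B16. It was followed by Trim25 and Usp18 in Hepa1-6 (42.2 and 34.1 CPM per kb) and by Lgals3bp and Isg15 in B16 (92.9 and 60.7 CPM per kb).

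**Figure D5:**
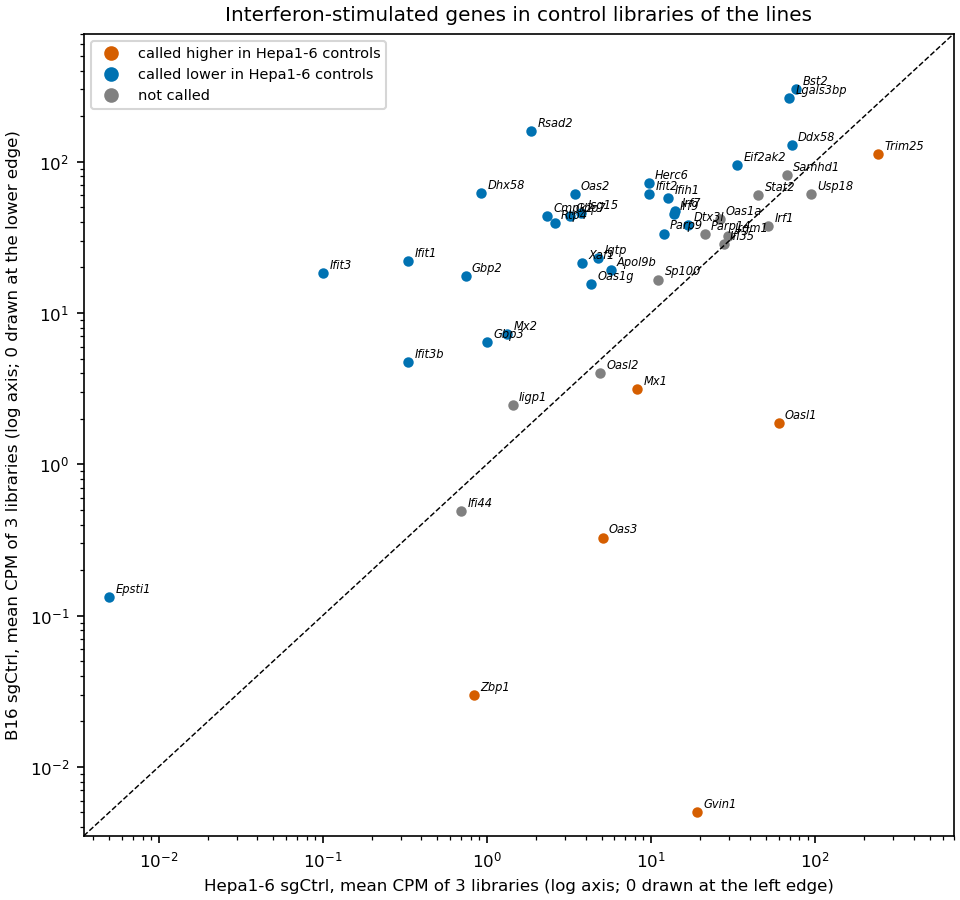
Mean CPM of 3 sgCtrl libraries in Hepa1-6 (x axis) and in B16 (y axis) for each member, on log axes with 0 drawn near the edge; the dashed line marks equal levels, orange points were called higher and blue points lower in Hepa1-6, and grey points were not called. Of the 47 members, 29 are blue and 6 orange, and Ifit3, Rsad2 and Dhx58 lie far above the line.

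The rest of the pathway was read from 4 further lists. Of 11 interferon ligand genes, all had 0 counts in every B16 library, which allows up to 0.121 to 0.242 CPM, and in Hepa1-6 Ifna2, Ifnk and Ifne had 4, 9 and 1 counts over all 9 libraries and the other 8 had 0. Of 15 genes of the receptors and JAK-STAT signalling, 0 were called in either line, which is near the share of all genes. That share was 0.0562% higher and 0.144% lower in Hepa1-6, and 0.0% higher and 0.0324% lower in B16. The receptor genes Ifnar1 and Ifngr1 had 0.08 (SE 0.22) and 0.23 (SE 0.31) in B16, and 0.02 (SE 0.18) and 0.30 (SE 0.13) in Hepa1-6. The smallest p of this list was that of Ifngr1 in Hepa1-6 and in B16 that of Irf2 (0.27, SE 0.25), a factor related to Irf1. Of 16 negative regulators 0 were called in either line, again near those shares of all genes. The smallest p was that of the phosphatase gene Ptpn2 in Hepa1-6 (0.41, SE 0.17) and of Pias4, an inhibitor of STAT proteins, in B16 (-0.26, SE 0.16).

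The last list held 74 other interferon-stimulated genes. Over all libraries 0 of 66 tested were called in Hepa1-6, where 0.0562% of all genes were called higher and 0.144% lower. In B16, 0 of 64 were called, where 0.0% and 0.0324% of all genes were. Of the 66 in Hepa1-6, 27 had a value above 0, with a median of -0.13 (52.6% of all genes above 0). Of the 64 in B16, 58 had a value above 0, with a median of 0.23 (52.9% of all genes above 0). The smallest p was that of the ubiquitin protease gene Usp25 in Hepa1-6 (-0.55, SE 0.15, adjusted p = 0.213) and of Shisa5 in B16 (0.43, SE 0.13, adjusted p = 1.0). With the block in B16, Gbp6 (1.76, SE 0.26, adjusted p = 0.0384) and Gbp9 (2.63, SE 0.42, adjusted p = 0.0497), both guanylate-binding protein genes, rose. Of all genes, 0.113% were called higher and 0.275% lower in that fit. With the block and without sgNcor1-1 1, 10 of 65 rose and 0 fell (1.25% and 1.45% of all genes). They were Tgtp2, Slfn5, Ifi203, Gbp6, Gbp9, Helz2, Gbp4, Trim30a, Uba7 and Ddx60, led by p by Tgtp2, a GTPase gene, at 1.78 (SE 0.16, adjusted p = 0.00133).

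Of the 17 members called in B16 with the block and without sgNcor1-1 1, 16 had a promoter sequence. The response element core was held by 10 of these 16, against 9 of the 20 with a sequence that were tested there and not called. The core was not in the windows searched for Irf7, Oasl2, Cmpk2, Xaf1, Sp100 and Epsti1, which were also called.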

How the data were processed

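The authors deposited 1 table of expected counts per gene for each line, with whole reads shared among genes by RSEM, so 7.87% of the Hepa1-6 values and 7.19% of the B16 values were not whole. Per the submitters' processing notes, the tools were FastQC 0.12.1, Trim Galore 0.6.7, Bowtie2 2.2.5 and RSEM 1.2.8 with build mm10; the annotation and strand setting are not given in the sources used here. Reads of overlapping or antisense genes cannot be told apart. From these, values were rounded to whole counts, and TMM-scaled CPM were computed. Groups were compared by quasi-likelihood in edgeR 4.0.16 (R 4.3.3, its filter on low counts, robust spread, 1 mean per group over the 9 libraries of a line), and DESeq2 1.42.0 was an alternative. P-values were adjusted by Benjamini-Hochberg over all genes tested, and values under 0.05 were called. Knockout is the mean of both guides minus sgCtrl on the log2 scale.

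The members, gene lists and tests were chosen with earlier results of these data known. Values per library are given for members called over all libraries, for the member with the smallest p in each class and line, and for the 3 members with the largest line difference each way at a mean of at least 5 CPM; other members were added where a count turned on them. Of the pathway lists, Ifnar1, Ifngr1 and the gene of the smallest p in each line were named where tested, and 1 further gene is not reported here. For each replicate number, deviations from the group means were correlated between guides. In B16 the 9 correlations ran from 0.50 to 0.74 and the numbers were read as pairs, while in Hepa1-6 the lowest was 0.05 and they were not. No pair of libraries was alike within sampling noise (lowest chi-square per degree of freedom 11.57 in Hepa1-6 and 6.608 in B16). The labels do not give the cultures behind the libraries, and p-values then reflect only how far these libraries vary, possibly for technical reasons. Gene positions, transcripts and shared stretches came from the GENCODE annotation of GRCm38 and promoters from RefSeq. The edgeR test of knockout against control was run on simulated data, with and without an effect of the replicate number. The simulation had no library that stood apart and left none out, so it does not cover the fits that do. Alternatives were other size factors, no filter, DESeq2, the replicate block, and leaving out each library or all libraries numbered 1. The block was also fitted without B16 sgNcor1-1 1, the library that stood apart. That library was also the only B16 knockout library whose member median lay below its same-number control (-0.21). The block without all libraries numbered 1 was added after seeing the data.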

Additional observations from a re-analysis of the deposited data

Results flagged for a closer look

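Rsad2, the viperin gene, was lower than the same-number control in all 6 Hepa1-6 knockout libraries and higher in all 6 B16 knockout libraries. It is given here because every library of one line moved against every library of the other. It was picked for that pattern, so the tests below are not separate support. Of all genes, 12.9% were lower than the same-number control in all 6 Hepa1-6 knockout libraries. In B16, 5.74% were higher in all 6, and the share with both was not counted. Within each line both guides share the same sgCtrl libraries. The log2 difference of its knockout effect, Hepa1-6 minus B16, was -2.07 (SE 0.87), which edgeR did not call over all genes (adjusted p = 0.665) in the joint fit. With the replicate number as a block it was called (-2.06, SE 0.35, adjusted p = 0.00902), where 0.99% of all genes were called lower. The check of pairing by number was not met in Hepa1-6. The Hepa1-6 values rest on 0.169 to 2.02 CPM in knockout libraries and 0.615 to 2.7 CPM in sgCtrl, close to the counting limit in the libraries numbered 1. Its level in B16 sgCtrl, 87.3 to 225 CPM, was far higher.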

How the results depend on the processing

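Of 24 values followed for single members, 23 kept their direction under every alternative run. Samhd1 in Hepa1-6, at 0.275, was -0.0226 without the libraries numbered 1 and -0.0225 with the block as well; the cause was not tested. In Hepa1-6 the count of members called for the mean of both guides was 1 and became 2 with the replicate block (Ifit2 and Gvin1, where 2.74% of all genes were lower). Ncor1 itself was called there too (-0.63, SE 0.15, adjusted p = 0.0453), and of the other interferon-stimulated genes B2m, Trim56 and Usp25 were lower. With sgNcor1-1 alone it was 0 and became 1 (Gvin1) with no filter on low counts, with DESeq2, with the replicate block and without the libraries numbered 1, with or without the block. Leaving out 1 library gave 0 to 1 with sgNcor1-1 alone and 0 to 1 with sgNcor1-2 alone. In B16 the count was 0, 1 with the replicate block, 17 with the block and without sgNcor1-1 1, and 13 with the block and without the libraries numbered 1. For sgNcor1-1 alone these last 2 gave 6 and 7 (0.271% and 0.699% of all genes higher), and for sgNcor1-2 alone 19 and 14 (1.11% and 1.28%). The line difference of the knockout effect had 0 called, 1 with DESeq2, 3 with the replicate block (Ddx58, Oasl2 and Rsad2; 0.99% of all genes lower), 12 with the block and without B16 sgNcor1-1 1 (2.52%), and 4 with the block and without the libraries numbered 1 (0.847%), while leaving out 1 library gave 0 to 2. The B16 member median of 0.43 became 0.58 with the block and without sgNcor1-1 1, and 0.29 to 0.56 without 1 library. Over all libraries the replicate block changed no other call of a member between knockout and control. In Hepa1-6 the same-number correlations of deviations were 0.91, 0.67 and 0.75 between the guides, 0.61, 0.05 and 0.38 between sgNcor1-1 and sgCtrl, and 0.59, 0.19 and 0.34 between sgNcor1-2 and sgCtrl. A group left with 2 libraries is assumed to vary like the others. Depth limits Ifit1, Ifit3, Ifit3b and Epsti1 in Hepa1-6 and Zbp1, Oas3 and Gvin1 in B16.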

Other observations

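Genes that share sequence with members were read after their values were seen, as counts not scaled for depth. Irgm2, an immunity-related GTPase gene, holds 12.3% of the 50-base stretches of Igtp. In B16 Irgm2 had 84, 1544 and 1214 counts with sgNcor1-1 and 2023, 1908 and 1269 counts with sgNcor1-2, against 945, 1198 and 1462 counts in sgCtrl. The library sgNcor1-1 1 was thus the lowest by far, as it was for Iigp1. Apol9a, of which Apol9b is a near copy (51.4% of its 50-base stretches), had 217, 402 and 294 counts with sgNcor1-1 and 758, 921 and 465 counts with sgNcor1-2 in B16, against 242, 485 and 273 counts in sgCtrl. Apol9b itself split by guide in number 2, where it lay below the control with sgNcor1-1 and above it with sgNcor1-2: sgNcor1-1 had 14.2, 13.8 and 9.46 CPM and sgNcor1-2 31.0, 37.6 and 15.7 CPM, against 13.6, 27.6 and 16.0 CPM in sgCtrl. By edgeR Irgm2 had a log2 ratio of 0.15 over all B16 libraries (SE 0.58, adjusted p = 1.0), and no test is given for Apol9a.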
